A study of Mus musculus with 17 samples.

Results

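Hox genes code for homeodomain transcription factors, proteins that bind DNA through a conserved domain and give cells their position along the body axis. The members described here were the non-control probes whose gene name in the scanner files was Hoxa, Hoxb, Hoxc or Hoxd followed by a number alone. This rule found 39 genes among 37074 gene names on the array, covered by 52 probes. For each gene, the probe with the highest mean log2 signal over all arrays stood for the gene. Of the 39 genes, 33 were well above the local background on at least 4 arrays, the filter for testing, and 6 (Hoxb1, Hoxc10, Hoxc11, Hoxc12, Hoxc13 and Hoxd1) were not.

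The genes lie in 4 clusters on different chromosomes, and genes with the same number in different clusters form a paralogue group that descends from the same ancestral gene. Within a cluster, genes of low number are expressed from anterior levels of the embryo onward, and genes of high number, at the 5′ end of the cluster, only toward the tail, an order known as collinearity. In the gut this order continues in the mesenchyme and epithelium, and the genes of paralogue group 13 are known for their roles at the hindgut and the anal end of the tract, with Hoxb13 known from the epithelium of the distal colon and from the prostate.

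Colon RNA of male mice on the C57Bl6/J background was hybridized to 17 single-colour Agilent arrays in 4 groups. WT stands for wild-type, Pxr-/- for mice without the pregnane X receptor PXR, and PCN for the steroid pregnenolone 16α-carbonitrile, which activates PXR of rodents. Wild-type colons gave 4 WT CONT arrays (replicates 2 to 5) and 4 WT PCN arrays, and receptor-null colons gave 5 Pxr-/- CONT arrays and 4 Pxr-/- PCN arrays. PCN mice were injected intraperitoneally with 100 mg/kg per day in corn oil on 4 days, CONT mice received the oil alone, and all were killed 6 h after the last injection. WT mice were bought at an age of 6 weeks and Pxr-/- mice were bred in the facility of the study, so that genotype and origin cannot be told apart, and both were acclimatized for 2 weeks. The labels name the colon as a whole and do not give the stretch that was sampled, nor the animal behind each array, so that p-values measure the spread between these arrays.

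The arrays were washed in 2 baths, each of which held arrays of all 4 groups. Between 62.7% and 71.0% of spots were well above background on an array, and 0 spots were saturated. The colon markers Car1, Slc26a3, Muc2, Cdx2 and Krt20 were well above background on every array, and the 4 markers of prostate and seminal vesicle were on none, with a list mean of 4.79 to 5.15 on the log2 scale. The mean of 8 genes of pancreatic enzymes and their relatives was 17.5 in WT CONT 4, 15.3 in WT PCN 3, 15.2 in Pxr-/- CONT 2 and 11.1 in WT PCN 1, against 7.50 to 7.99 in the other arrays. The mean of 7 liver genes was 11.1 in WT CONT 5, 8.69 in WT PCN 1 and 8.36 in WT PCN 2, against 6.00 to 6.82 in the other arrays. The part of these signals in the results below was not tested. The comparisons between groups and the median residual SD were also computed without each array in turn, and the correlations with Hoxb13 without each point in turn. The other results were not.

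Arrays under different labels were closer to each other than any replicates of 1 group. WT PCN 4 and Pxr-/- PCN 2 differed with an SD of 0.17 (log2) over all probes tested, and WT PCN 3 and Pxr-/- CONT 2 with an SD of 0.20, where the next closest pair of arrays had an SD of 0.30. Among Hox genes the largest difference within these pairs was 1.21 (Hoxc4) in the first and 0.51 in the second. The labels were kept as they stand, correlations took the mean of each pair as 1 point, and comparisons between groups were repeated without these 4 arrays. In bulk tissue, fewer cells of a type and less RNA per cell cannot be told apart in any of the signals below.

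The probes of the clusters cover the following regions of mouse build mm9, as annotated in the array files. The Hoxa genes (11) are read from the minus strand of chromosome 6, the Hoxb genes (10) on chromosome 11 from 96057854 to 96228510, the Hoxc genes (9) on chromosome 15 from 102759485 to 102867272 and the Hoxd genes (9) on chromosome 2 from 74509248 to 74603059, the last 3 on the plus strand. All probes were 60 bases long, and 1 of the 52, the second probe of Hoxb2, was antisense to its gene. Some probes lie within the homeobox, the stretch that codes for the DNA-binding domain and that is alike between members. The following probes are shown because the values of Hoxc11 and Hoxd10 are read from them. Capitals mark the codons at the start of the helix that contacts DNA, placed by a search of the translated probe. Any further codons of that helix are in lower case.
Hoxc11, chr15:102787015-102787074, plus strand: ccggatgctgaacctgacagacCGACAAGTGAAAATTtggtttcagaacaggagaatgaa
Hoxd10, chr2:74532280-74532339, plus strand: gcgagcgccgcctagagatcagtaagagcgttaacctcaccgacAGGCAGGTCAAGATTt

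Promoter sequences of RefSeq (GRCm38.p6, 250 bases before the annotated start) were at hand for 22 of the 39 genes, in 24 windows. They were searched on both strands for TTTATG and TTTATA, letters bound by caudal homeodomain factors such as Cdx2, of which TTTATA read on the other strand, TATAAA, also spells a TATA box. A match was found in 7 windows (29.2%), against 20.9% of all 32851 windows. The windows of Hoxd13, Hoxd4 and Hoxb8 are shown because the signals of these genes moved in opposite ways across arrays, as described below, and capitals mark the matches.
Hoxd13, chr2:74667975-74668224, plus strand: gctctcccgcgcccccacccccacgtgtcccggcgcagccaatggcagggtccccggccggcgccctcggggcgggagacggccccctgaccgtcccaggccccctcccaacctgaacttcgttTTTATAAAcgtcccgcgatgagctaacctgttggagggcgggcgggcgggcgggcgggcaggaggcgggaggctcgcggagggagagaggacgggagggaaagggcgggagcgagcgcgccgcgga
Hoxd4, chr2:74721728-74721977, plus strand: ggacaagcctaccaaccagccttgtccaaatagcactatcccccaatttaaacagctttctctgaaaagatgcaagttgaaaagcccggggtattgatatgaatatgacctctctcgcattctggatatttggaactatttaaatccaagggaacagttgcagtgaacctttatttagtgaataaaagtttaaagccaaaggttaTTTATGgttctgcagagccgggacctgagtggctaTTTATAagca
Hoxb8, chr11:96281655-96281904, plus strand: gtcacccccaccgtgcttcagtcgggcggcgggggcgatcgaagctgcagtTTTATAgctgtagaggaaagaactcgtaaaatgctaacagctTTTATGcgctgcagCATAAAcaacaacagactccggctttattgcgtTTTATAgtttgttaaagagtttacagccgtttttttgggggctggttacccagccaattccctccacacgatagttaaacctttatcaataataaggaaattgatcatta
The Hoxb8 window held 4 matches, of which CATAAA is TTTATG read on the other strand, and 3 or more matches occurred in 0.989% of all windows. The Hoxd13 window held 2 overlapping matches and 74.4% G and C, against 40.4% in the Hoxd4 window, 44.4% in the Hoxb8 window and a median of 52.4% over all windows. A match of letters is a description of the window and not of binding.

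The adult colon gave a Hox signal from every cluster. Of the 39 genes, 23 were well above background on all 17 arrays, 13 on some and 3 on none (Hoxb1, Hoxc12 and Hoxd1). Every Hoxa gene reported here, from Hoxa2 to Hoxa13, was detected on every array. In the Hoxb cluster, 8 of 10 genes were detected on every array, Hoxb8 on 12 arrays and Hoxb1, the gene of hindbrain patterning, on 0. Of the 9 Hoxc genes, Hoxc4 alone was detected on every array. Hoxc5 and Hoxc6 followed with 8 arrays, Hoxc8 and Hoxc9 with 5, Hoxc11 and Hoxc13 with 2 and Hoxc10 with 1. Of the 9 Hoxd genes, Hoxd4, Hoxd8 and Hoxd13 were detected on every array, Hoxd10 on 16, Hoxd9 and Hoxd12 on 11, Hoxd3 on 7 and Hoxd11 on 4. A probe that is not well above background gives no evidence that its gene is silent.

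**Figure D1:**
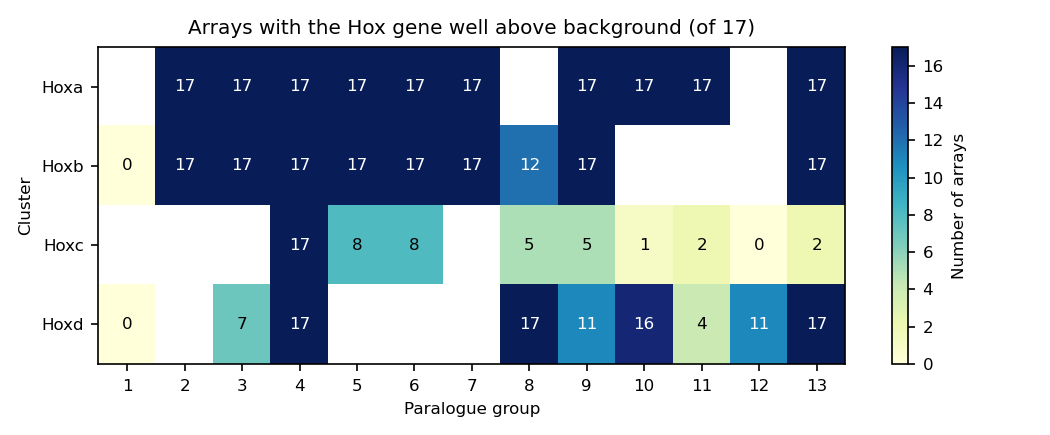
Number of arrays (of 17) on which each Hox gene was well above background, with clusters in rows and paralogue groups in columns; white cells are genes that do not exist or are not reported here. Each Hoxa gene shown is at 17 arrays, and the Hoxc row reaches 17 for Hoxc4 alone.

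By paralogue group, 5 of 8 genes of groups 1 to 3, 13 of 19 of groups 4 to 9 and 5 of 12 of groups 10 to 13 were detected on every array. The 5 genes at the posterior end were Hoxa10, Hoxa11, Hoxa13, Hoxb13 and Hoxd13. Detections of the posterior Hoxc genes were rare, with Hoxc10 in Pxr-/- PCN 4 and Hoxc11 in Pxr-/- CONT 4 and Pxr-/- PCN 4. Hoxc13, a gene of hair and nail, was detected in Pxr-/- CONT 3 and Pxr-/- CONT 5. Its second probe was well above background on 0 arrays and had r = 0.26 with the first across arrays. These detections are too few to set the genotypes against each other, and the share over all probes was not computed.

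Within groups, the signals of Hox genes spread further than those of most probes. The residual SD, which is the spread between arrays after the mean of each group and the wash bath were taken out, had a median of 0.57 (log2) over the 33 tested genes and of 0.17 over all 38703 probes tested. By definition 5% of all probes lay above the 95th percentile of 0.53, and 18 of the 33 Hox genes did. The spread differed by cluster. In the Hoxa cluster, 1 of 11 genes (Hoxa11) was above that percentile and the median residual SD was 0.22. In the Hoxd cluster, all 8 tested genes were above it, with a median of 1.01. Of the Hoxb genes, 7 of 9 passed it, with a median of 1.04, and of the Hoxc genes 2 of 5, with a median of 0.45.

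**Figure D2:**
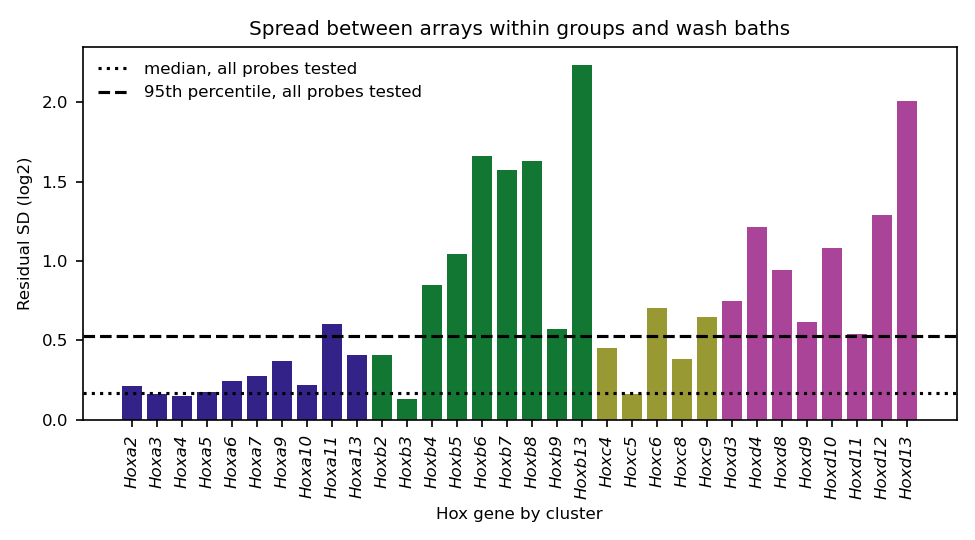
Residual SD (log2) of 32 tested Hox genes between arrays of the same group and wash bath, in the order of the clusters and coloured by cluster; lines mark the median and the 95th percentile of all probes tested. Bars of the Hoxb and Hoxd genes reach 2.24 (Hoxb13) and 2.01 (Hoxd13), while 9 of 10 Hoxa bars stay under the upper line at 0.53.

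The largest residual SDs were those of Hoxb13 (2.24), Hoxd13 (2.01), Hoxb6 (1.66), Hoxb8 (1.63), Hoxb7 (1.58), Hoxd12 (1.29), Hoxd4 (1.22), Hoxd10 (1.08) and Hoxb5 (1.04). The smallest were those of Hoxb3 (0.13), Hoxa4 (0.15) and Hoxa3 (0.16). The other tested genes of these paralogue groups spread further, namely Hoxc4 (0.45), Hoxd3 (0.75), Hoxb4 (0.85) and Hoxd4 (1.22). The second probe of Hoxb3 had a residual SD of 0.80. Expressed as the ratio of the highest to the lowest array, Hoxb13 spanned 377-fold, Hoxb6 50.8-fold, Hoxd13 47.8-fold and Hoxb7 31.2-fold, whereas the Hoxa genes spanned 1.36-fold to 4.14-fold. Pxr-/- PCN 4 sets most of these values. Without it, Hoxd13 spanned 47.7-fold, Hoxb6 10.3-fold, Hoxb7 9.31-fold, Hoxb13 9.27-fold and the Hoxa genes 1.36-fold to 3.58-fold. The spread was present in every group, and the median SD of the 33 genes was 0.34 in WT CONT, 0.45 in WT PCN, 0.50 in Pxr-/- CONT and 0.75 in Pxr-/- PCN, against 0.15, 0.16, 0.15 and 0.17 over all probes tested. The gene with the highest SD was Hoxd13 in WT CONT (1.55), WT PCN (2.25) and Pxr-/- CONT (1.56), and Hoxb13 in Pxr-/- PCN (4.00).

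Values of single arrays are given below in the order of the replicate numbers, which run from 2 to 5 in WT CONT, from 1 to 4 in WT PCN, from 1 to 5 in Pxr-/- CONT and from 1 to 4 in Pxr-/- PCN. All are quantile-normalized log2 signals of the probe that stands for the gene. The signals of different probes are not levels that can be set against each other.

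Hoxb13, the most posterior gene of its cluster, gave 15.63, 16.09, 13.91 and 15.89 in WT CONT, 16.00, 14.04, 13.86 and 14.55 in WT PCN, 15.87, 13.73, 14.50, 12.88 and 15.82 in Pxr-/- CONT, and 15.67, 14.50, 16.08 and 7.53 in Pxr-/- PCN. Values above 15.6 and values of at most 14.55 occurred together in each of the 4 groups, and the groups overlapped. The mean was 15.38 ± 1.00 (SD, n = 4) for WT CONT and 14.61 ± 0.97 (SD, n = 4) for WT PCN. For Pxr-/- CONT it was 14.56 ± 1.31 (SD, n = 5), and for Pxr-/- PCN, with the low array included, 13.44 ± 4.00 (SD, n = 4).

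Hoxd13, the most posterior gene of the Hoxd cluster, which acts in limb digits and the hindgut, gave 8.57, 10.40, 6.85 and 9.67 in WT CONT, 11.51, 6.94, 6.78 and 7.39 in WT PCN, 8.77, 6.70, 7.65, 6.03 and 9.90 in Pxr-/- CONT, and 9.01, 7.34, 11.61 and 6.03 in Pxr-/- PCN. The arrays that were high for Hoxb13 were also high for Hoxd13, and the groups overlapped again. The means were 8.87 ± 1.55 (SD, n = 4), 8.15 ± 2.25 (SD, n = 4), 7.81 ± 1.56 (SD, n = 5) and 8.50 ± 2.41 (SD, n = 4) in the same order of groups.

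The posterior Hoxa genes were steadier. Hoxa13, which with Hoxd13 patterns the hindgut, gave 9.80, 9.82, 9.32 and 9.36 in WT CONT, 9.48, 9.57, 9.79 and 9.71 in WT PCN, 9.37, 9.64, 9.88, 9.83 and 9.58 in Pxr-/- CONT, and 9.66, 9.72, 9.48 and 7.83 in Pxr-/- PCN. All arrays but Pxr-/- PCN 4 lay between 9.32 and 9.88. Hoxa10, a gene of the reproductive tract and posterior skeleton, gave 12.28, 12.13, 12.43 and 12.23 in WT CONT, 11.76, 12.46, 12.57 and 12.31 in WT PCN, 12.24, 12.44, 12.47, 12.52 and 12.19 in Pxr-/- CONT, and 11.92, 12.39, 11.95 and 11.57 in Pxr-/- PCN. Of these, 3 of the 4 Pxr-/- PCN arrays lay below every Pxr-/- CONT array. Hoxa11, known from limb and kidney development, gave 9.93, 9.70, 11.22 and 10.09 in WT CONT, 9.98, 11.10, 11.12 and 11.03 in WT PCN, 10.38, 11.12, 10.92, 11.43 and 10.12 in Pxr-/- CONT, and 10.02, 10.91, 9.59 and 10.59 in Pxr-/- PCN. The 8 lowest arrays were the 8 in which Hoxb13 was highest, and the groups overlapped.

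The 5 genes of lower paralogue groups with the largest spread were Hoxb5, Hoxb6, Hoxb7, Hoxb8 and Hoxd4. Hoxb6, which patterns the thoracic skeleton, gave 7.69, 7.58, 9.78 and 7.93 in WT CONT, 7.81, 9.86, 9.68 and 9.79 in WT PCN, 7.90, 9.68, 9.06, 10.47 and 7.69 in Pxr-/- CONT, and 7.11, 9.76, 7.18 and 12.78 in Pxr-/- PCN. Its neighbour Hoxb7 gave 7.76, 7.71, 10.18 and 8.01 in WT CONT, 8.05, 9.91, 9.90 and 9.99 in WT PCN, 8.11, 10.06, 9.39, 10.84 and 7.71 in Pxr-/- CONT, and 7.81, 9.91, 7.62 and 12.59 in Pxr-/- PCN. Both genes gave at most 8.11 in the 8 arrays with the highest Hoxb13 and at least 9.06 in the others, and Pxr-/- PCN 4 was the highest for each.

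Hoxb5, which acts in enteric neural crest cells among others, gave 8.44, 8.01, 9.36 and 8.32 in WT CONT, 8.27, 9.33, 9.30 and 9.04 in WT PCN, 8.53, 9.32, 8.88, 9.74 and 8.14 in Pxr-/- CONT, and 7.68, 9.05, 7.31 and 11.30 in Pxr-/- PCN. Hoxb8, known from the spinal cord and from haematopoietic cells, gave 6.61, 4.98, 7.80 and 5.75 in WT CONT, 5.99, 9.38, 7.34 and 7.86 in WT PCN, 5.63, 7.33, 6.78, 9.02 and 5.34 in Pxr-/- CONT, and 5.47, 8.21, 5.52 and 9.87 in Pxr-/- PCN. The Hoxb8 values of WT CONT 3, Pxr-/- CONT 1 and 5 and Pxr-/- PCN 1 and 3 were not well above background and give only an upper bound. Hoxd4, a gene of the hindbrain and neck in the embryo, gave 8.16, 8.02, 9.43 and 8.24 in WT CONT, 8.74, 9.12, 9.10 and 9.14 in WT PCN, 7.91, 8.88, 8.10, 10.23 and 7.77 in Pxr-/- CONT, and 7.50, 9.27, 7.82 and 11.94 in Pxr-/- PCN. The groups of all 5 genes overlapped.

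**Figure D3:**
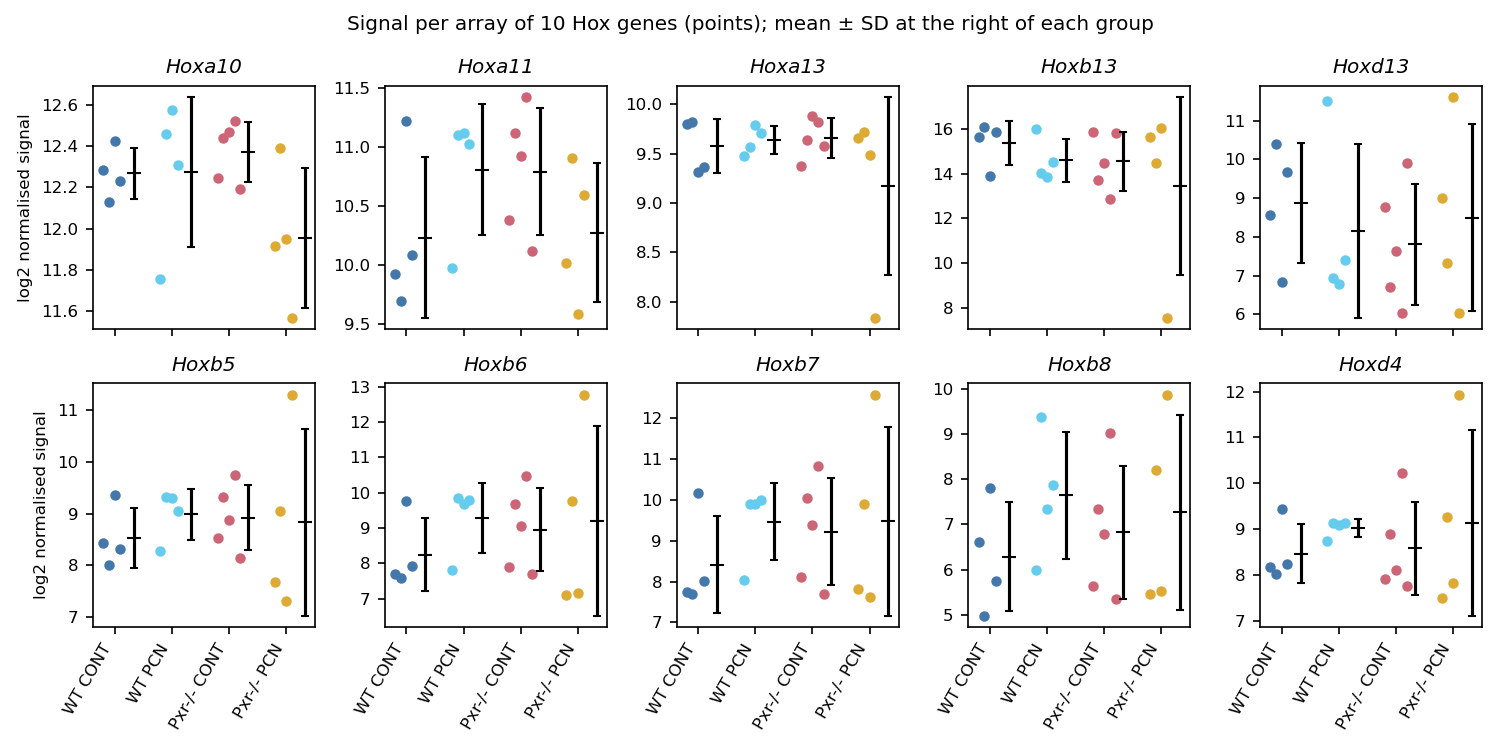
Quantile-normalized log2 signal of 10 Hox genes in each array, by group, with the group mean and SD as bars; panels have their own vertical scale. Low and high arrays occur in every group for Hoxb13 and Hoxd13, and Pxr-/- PCN 4 lies at 7.53 for Hoxb13 and 12.78 for Hoxb6.

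Pxr-/- PCN 4 stood apart from all other arrays in Hoxb13 and several other Hox genes. Of the 33 tested genes, 13 had their highest signal and 9 their lowest in this array. The share of all probes that were highest or lowest there was not computed. Over all probes tested, it differed from its nearest array, Pxr-/- CONT 4, with an SD of 0.39, against 0.37 for WT CONT 4 and its nearest, WT PCN 3. Hoxb13 was 7.53 here and 12.88 to 16.09 in the other arrays, and Hoxa13 was 7.83 here and 9.32 to 9.88 elsewhere. In the opposite direction, Hoxb6 (12.78), Hoxb7 (12.59), Hoxd4 (11.94), Hoxb4 (11.47) and Hoxd8 (11.08) exceeded the highest other array, which gave 10.47, 10.84, 10.23, 9.74 and 9.80. The non-coding RNAs at the posterior end of the Hoxa cluster were low in the same array, with Hottip at 6.23 (7.91 to 8.84 elsewhere) and Hoxa11os, the antisense RNA of Hoxa11, at 13.28 (14.99 to 15.64 elsewhere). The ileal bile acid genes Slc10a2, a transporter, and Fabp6, a binding protein, were higher there than in any other array, at 12.51 and 12.46 against at most 10.73 and 10.97. Atp12a, a proton pump of the distal colon, was lowest there, at 5.51 against 7.81 to 13.11. Aqp4, a water channel of the proximal colon, was lowest there too, at 11.27 against 12.50 to 14.19. Of the colon markers, Car1 was highest there, at 17.04 against at most 16.28, and Slc26a3 lowest, at 13.41 against at least 14.42. Scnn1b and Scnn1g, known from the distal colon, lay within the range of the other arrays. The stretch behind this array was not tested. The array was kept under its label.

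Across arrays, the posterior genes Hoxb13 and Hoxd13 rose together while 7 genes of lower number in the Hoxb and Hoxd clusters fell. Correlations with Hoxb13 were computed over 15 points for 31 measures, of which 22 were Hox genes detected on every array. Of the 31, 10 passed an adjusted p of 0.05 (Pearson's r, permutation test with 100000 draws, Benjamini-Hochberg over the 31), and 8 of these were Hox genes, 1 positive and 7 negative. Without Pxr-/- PCN 4, 20 of the 31 passed, and r changed sign for 10 of the 31 measures. For Hoxd13, r was 0.72 (permutation test, adjusted p = 0.00096) and Spearman's rho 0.97 (adjusted p = 0.000155). Without the 2 points farthest from the median of Hoxb13, which were Pxr-/- PCN 4 and Pxr-/- CONT 4, its r was 0.90.

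Hoxb3 and Hoxb9 did not pass, with r of −0.41 and −0.35, and the 7 negative genes were Hoxb2, Hoxb4, Hoxb5, Hoxb6, Hoxb7, Hoxd4 and Hoxd8. Their r lay between −0.96 (Hoxb4) and −0.84 (Hoxb2), with adjusted permutation p of 7.75e-05 to 0.000172, and their rho between −0.89 (Hoxb5) and −0.72 (Hoxd4), with adjusted p of 0.000233 to 0.00881. Without the 2 farthest points r was −0.97 for Hoxb7, −0.94 for Hoxb6, −0.88 for Hoxb5, −0.87 for Hoxb4, −0.84 for Hoxd8, −0.76 for Hoxd4 and −0.74 for Hoxb2. Within wash bath 1 their r was −0.97 to −0.90, and within wash bath 2 it was −0.97 to −0.87, over 8 points each. The baths are not independent repeats, since the near-identical WT PCN 3 and Pxr-/- CONT 2 lie in different baths. Bath 2 also holds Pxr-/- PCN 4, the lowest point. For Hoxd13, r was 0.93 in bath 1 and 0.75 in bath 2.

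**Figure D4:**
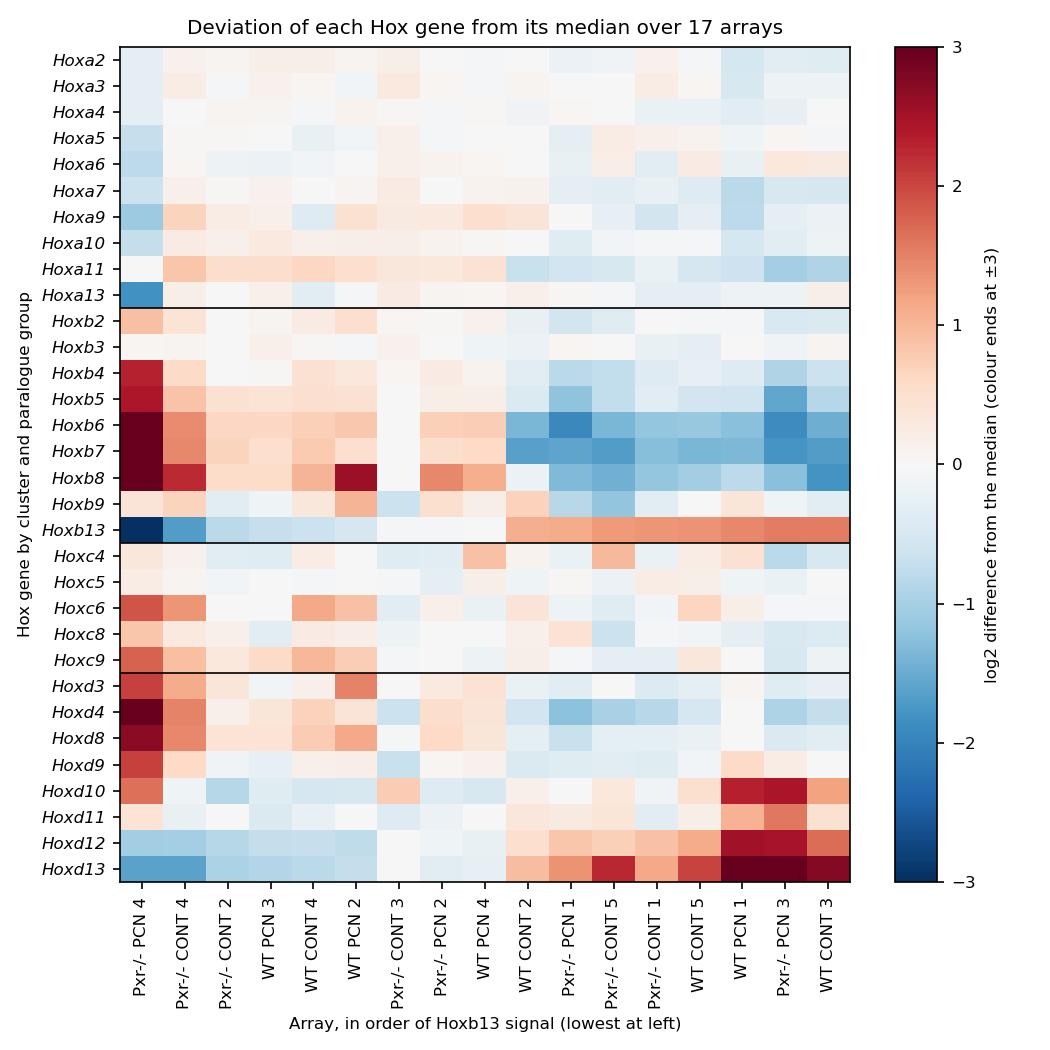
Deviation of 32 tested Hox genes from their medians over the 17 arrays (log2, colour, which ends at 3 in either direction), with arrays ordered from low to high Hoxb13 and genes in cluster order. Hoxb4 to Hoxb8, Hoxd4 and Hoxd8 run from high on the left to low on the right, Hoxd12, Hoxd13 and Hoxb13 run the other way, and the Hoxa rows other than Hoxa11 stay paler, most of all outside the leftmost array, Pxr-/- PCN 4.

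The points were not spread evenly along the range of Hoxb13. The lowest point, Pxr-/- PCN 4, lay 5.34 below the next, and the widest gap among the others, between 14.52 and 15.63, was 1.11, against 0.92 for the next widest. Correlations were therefore also computed on both sides of 15, a limit chosen after the data had been seen. Among the 8 points above it the 7 negative genes had r between −0.30 and 0.36, with no common direction, and among the 7 points below it between −0.99 and −0.86. Without the lowest point, the 6 others below gave r between −0.95 (Hoxb5) and −0.56 (Hoxb2). Hoxd13 had r = 0.82 above and r = 0.72 below the limit, the latter 0.98 without the lowest point. Among the 8 points above, 0 of 31 measures passed the adjusted p. These 8 points cover Hoxb13 signals of 15.63 to 16.09 alone, so that their r says little about the relation, and whether it differs between the sides was not tested.

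**Figure D5:**
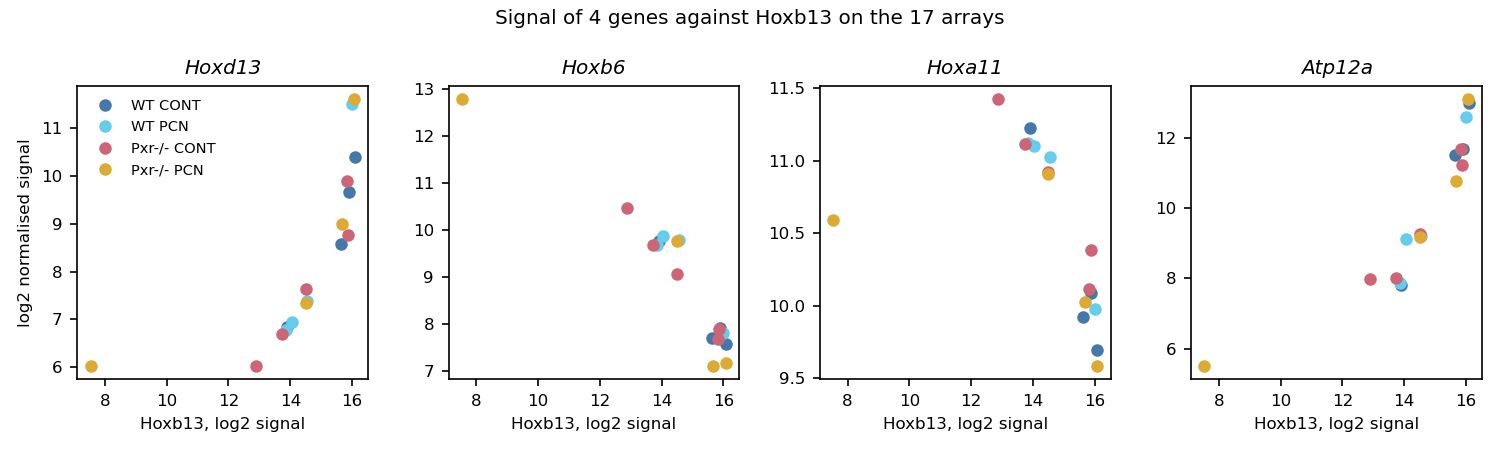
Log2 signal of Hoxd13, Hoxb6, Hoxa11 and Atp12a against that of Hoxb13 on the 17 arrays, coloured by group. Hoxd13 and Atp12a rise with Hoxb13, Hoxb6 and Hoxa11 fall, and the point at 7.53 is Pxr-/- PCN 4.

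Other Hoxa genes gave no relation that held for every measure. For Hoxa11, r was −0.49 (permutation test, adjusted p = 0.0854) and rho −0.84 (adjusted p = 0.00119), and r without the 2 farthest points was −0.95, which shows how far Pxr-/- PCN 4 moved the value. For Hoxa13, r was 0.77 (permutation test, adjusted p = 0.107), but rho was −0.05 and r without the farthest points −0.12, so that the positive value rested on that array. Hoxa10 had r = 0.24 with it and −0.80 without it. Among tested genes not detected on every array, rho was 0.975 for Hoxd12, 0.56 for Hoxd10, 0.52 for Hoxd11, −0.21 for Hoxd9 and −0.30 for Hoxc5. It was −0.85 for Hoxb8, −0.78 for Hoxd3, −0.77 for Hoxc9, −0.69 for Hoxc8 and −0.54 for Hoxc6. These values are a description. They rest in part on signals that were not well above background, as for Hoxc9, which was detected on 5 arrays. Over the 24994 named genes tested, 6.51% had a rho of 0.8 or more in size, and of the 32 Hox genes other than Hoxb13, 9 (28.1%) did.

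Genes that mark stretches of the intestine were part of the same 31 measures. Atp12a rose with Hoxb13 (r = 0.87, permutation test, adjusted p = 7.75e-05, rho = 0.96). Its r was 0.87 above and 0.93 below the limit, the latter 0.73 without Pxr-/- PCN 4. Slc10a2 fell as Hoxb13 rose (r = −0.91, permutation test, adjusted p = 0.000103), with r = −0.88 without Pxr-/- PCN 4. Its r was 0.14 above and −0.90 below the limit, the latter −0.83 without Pxr-/- PCN 4. Fabp6 did not pass (r = −0.50, adjusted p = 0.133 by permutation), and its r turned to 0.60 without that array. Aqp4, a water channel of the proximal colon, had r = 0.68 (permutation test, adjusted p = 0.0854) with Pxr-/- PCN 4 and −0.08 without it. The sodium channel subunits Scnn1g and Scnn1b, known from the distal colon, had r = 0.57 (permutation test, adjusted p = 0.0854) and −0.13 (adjusted p = 0.719 by permutation) and were well above background on only 11 and 6 arrays. Without Pxr-/- PCN 4 their r was 0.70 and 0.12. Prac1, next to Hoxb13 in the genome and known from the distal colon, was not found on the array.

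Marker lists of cell types were also set against Hoxb13. The mean of 8 smooth muscle genes had r = −0.15 (permutation test, adjusted p = 0.719) and rho = −0.56 (adjusted p = 0.0797), and r was −0.92 without Pxr-/- PCN 4 and −0.89 without the 2 farthest points. The mean of 6 epithelial genes had r = −0.20 (permutation test, adjusted p = 0.558) and that of 6 fibroblast genes r = −0.36 (permutation test, adjusted p = 0.288), and without Pxr-/- PCN 4 these were −0.68 and −0.30. All 3 lists were well above background on every array with each of their genes. The smooth muscle mean ranged from 14.5 to 15.4, the epithelial mean from 15.6 to 15.8 and the fibroblast mean from 13.3 to 13.9. Arrays with the highest pancreatic signal, WT CONT 4, WT PCN 3 and Pxr-/- CONT 2, had Hoxb13 signals of 13.91, 13.86 and 13.73, and WT PCN 1 had 16.00. The part of these lists in the Hox signals was not tested.

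The choice of probe mattered for Hoxb3 and Hoxb9. The probe that stands for Hoxb3 varied little, from 6.84 to 7.27, whereas the second probe ranged from 6.16 to 8.94 with its highest value in Pxr-/- PCN 4. Its residual SD was 0.80 against 0.13, the probes correlated with r = 0.34 across arrays, and the second probe had r = −0.95 with Hoxb13 and 0.97 with Hoxb4, as a description over 17 arrays. For Hoxb9, r with Hoxb13 was −0.34 for the probe that stands for the gene and −0.91 for the second probe. Of the other tested genes with further probes, Hoxa10, Hoxb8 and Hoxd8 had a second probe that followed the first with r of 0.94 to 0.97, and that of Hoxc6 did so with r = 0.80. The further probes of Hoxa9 had r of 0.97 and 0.77, those of Hoxa3 0.55 and 0.63, the third probe of Hoxb3 0.34 and the antisense probe of Hoxb2 0.69. Hoxb3 and Hoxb9 are therefore uncertain as members of either pattern.

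Differences between groups were tested with limma on all 38703 probes, with the wash bath as a term, and a gene was called where the false discovery rate was at most 0.05 and the change exceeded 1.5-fold. PCN in WT mice changed 0 of 33 Hox genes, as of 0% of all probes. At an unadjusted p under 0.05 there were 0 Hox genes and 4.66% of all probes, and the smallest adjusted p of a Hox gene was 0.956. The median log2 fold change of the 33 genes was 0.04, against −0.000132 over all probes, with a range from −0.86 (Hoxb13) to 1.23, and it was 0.02 to 0.14 with each array left out. The difference in Hoxb13 was −0.86 with a standard error (SE) of 1.46 and that in Hoxd13 −0.58 with an SE of 1.31, so that differences of more than 2-fold in either direction lay within the error. Within the wash baths the median of the Hox genes was 0.24 in bath 1 and −0.23 in bath 2, and 7 and 6 of the 33 genes had an unadjusted p under 0.05, against 12.5% and 4.42% of all probes, with 0 called in either. Bath 2 holds 1 WT PCN array. Without the 4 near-identical arrays the median was 0.20, with 0 genes called and 1 at an unadjusted p under 0.05.

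In Pxr-/- mice, PCN changed 0 of 33 Hox genes, as against 0.00517% of all probes. Unadjusted p-values under 0.05 were found for 4 Hox genes, all lower with PCN and all of the Hoxa cluster, and for 7.35% of all probes. The log2 fold change was −0.38 (SE 0.11, unadjusted p = 0.00496, limma) for Hoxa5, which acts in lung and gut mesenchyme, with an adjusted p of 0.473 and of 0.210 to 0.922 over the alternatives. For Hoxa10 it was −0.44 (SE 0.14, unadjusted p = 0.00675, limma) with an adjusted p of 0.503 and of 0.341 to 0.920. Both kept their sign in all 34 alternatives, and without Pxr-/- PCN 4 the value of Hoxa5 was −0.23. The median over the 33 genes was 0.00 (all probes 0.01), but single arrays moved it, to −0.23 without Pxr-/- PCN 4, to 0.23 without Pxr-/- PCN 1 and to 0.19 without Pxr-/- CONT 4. It was −0.32 within bath 1 and 0.14 within bath 2, with 3 of the 33 genes at an unadjusted p under 0.05 in each, against 8.52% and 4.57% of all probes.

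Hoxa5 gave 9.35, 9.30, 9.15 and 9.47 in WT CONT, 9.25, 9.28, 9.38 and 9.36 in WT PCN, 9.53, 9.39, 9.52, 9.40 and 9.59 in Pxr-/- CONT, and 9.08, 9.31, 9.42 and 8.66 in Pxr-/- PCN. In this comparison 1 of 4 PCN arrays lay within the range of the 5 controls. Hoxa3, a gene of pharyngeal arches and neck organs, differed by −0.25 (SE 0.11, unadjusted p = 0.0369, limma; adjusted p = 0.648, alternatives 0.374 to 0.999), and Hoxa2, a gene of the hindbrain and second arch, by −0.29 (SE 0.14, unadjusted p = 0.0499, limma; adjusted p = 0.679, alternatives 0.423 to 0.999). Hoxa3 gave 11.06, 10.80, 11.13, 11.06 and 10.84 in Pxr-/- CONT and 10.83, 10.90, 10.70 and 10.55 in Pxr-/- PCN, and Hoxa2 gave 8.18, 8.13, 8.23, 8.17 and 7.95 against 7.86, 8.05, 7.70 and 7.79. The ranges of both groups overlapped for each gene.

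In the same comparison, 6 of 8 smooth muscle genes and 5 of 8 enteric neuron genes were lower with PCN at an unadjusted p under 0.05, and 0 were higher. Over all probes, 7.35% had such a p in either direction. These were the lists with the most such genes. Of 4 enteric glia genes, 1 was higher and 0 were lower, and 0 of 6 fibroblast and 0 of 6 epithelial genes passed in either direction. The mean of the smooth muscle list was 14.7 to 15.4 in Pxr-/- CONT and 14.5 to 14.9 in Pxr-/- PCN, and that of the enteric neuron list, of which 7 of 8 genes were well above background on every array, was 9.30 to 9.76 and 8.95 to 9.29. The part of these cell types in the Hoxa values was not tested. The differences in Hoxb13 and Hoxd13 were −1.15 (SE 1.37) and 0.74 (SE 1.23).

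Between the genotypes without PCN, limma called 0 of 33 Hox genes and 0% of all probes. At an unadjusted p under 0.05 there were 1 Hox gene and 12.7% of all probes. In the CONT comparison of Hoxb13, the difference was −0.78 (SE 1.37), and in that of Hoxd13 −1.12 (SE 1.23), each smaller than its error. Over the 33 genes the median difference was 0.10, against 0.01 over all probes, and it fell to 0.0013 without Pxr-/- CONT 4, to 0.03 without WT CONT 3 and to 0.02 with the slide as a fixed block. It was 0.29 within bath 1, with 7 of the 33 genes at an unadjusted p under 0.05 against 14.4% of all probes, and −0.08 within bath 2, with 0 genes against 4.51%.

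The interaction of PCN and genotype, which asks whether the PCN difference was unlike in Pxr-/- and WT mice, called 0 of 33 Hox genes and 0% of all probes in limma, with 0 Hox genes and 5.38% of probes at an unadjusted p under 0.05. The smallest adjusted p of a Hox gene was 0.848. The median interaction of the 33 genes was −0.20, against 0.01 over all probes, and it was −0.31 without WT CONT 4 and −0.03 without Pxr-/- PCN 3, the extremes over each array left out. It was −0.46 within bath 1, with 15 of the 33 genes at an unadjusted p under 0.05 against 16.1% of all probes, and 0.33 within bath 2, with 1 gene against 2.78%. The value of bath 2 rests on 1 WT PCN array. Bath 1 holds the near-identical WT PCN 4 and Pxr-/- PCN 2 and bath 2 holds Pxr-/- PCN 4. The comparisons share control arrays, so that their values are not independent. Across the 4 comparisons, 0 Hox genes were called in any alternative.

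The RNAs and proteins around the Hox genes were examined from lists. Of 13 non-coding RNAs of the loci, 7 were on the array and 6 were well above background on every array, namely Hottip, Hoxa11os, Hoxaas2, Hoxaas3, Hoxb5os and Haglr, while Halr1 was on none. In limma, 0 of the 6 were called in any comparison. Hoxa11os was lower with PCN in Pxr-/- mice by −0.79 (SE 0.29, unadjusted p = 0.0156, adjusted p = 0.578, alternatives 0.316 to 0.999), a difference that became −0.30 without Pxr-/- PCN 4.

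Of 9 TALE homeodomain partners, the Pbx and Meis families with which Hox proteins bind DNA, 8 were tested and 0 called in limma. With PCN in Pxr-/- mice, Meis3 differed by 0.40 (SE 0.12, unadjusted p = 0.00373, adjusted p = 0.440, alternatives 0.161 to 0.999) and Pbx3 by −0.49 (SE 0.14, unadjusted p = 0.00375, adjusted p = 0.440, alternatives 0.204 to 0.999). The interaction was −0.58 for Pbx3, with an adjusted p of 0.848 in limma.

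Of 12 regulators of Hox genes, 10 were tested, while Cdx4 and Gdf11 were not well above background on any array. The list showed 1 unadjusted p under 0.05 among the PCN comparisons, that of Rarb, a retinoic acid receptor that is itself induced by retinoic acid. Rarb gave 8.10, 7.90, 8.02 and 8.04 in WT CONT and 7.75, 7.90, 8.08 and 7.52 in WT PCN. The last of these, WT PCN 4, is near-identical to Pxr-/- PCN 2. It gave 8.03, 7.999, 8.18, 7.97 and 7.83 in Pxr-/- CONT and 7.38, 7.31, 7.56 and 7.20 in Pxr-/- PCN, so that all 4 PCN arrays lay below all 5 controls. The share of all probes that separate these 2 groups was not computed. The difference of Rarb with PCN in Pxr-/- mice was −0.65 (SE 0.11, unadjusted p = 2.02e-05, limma) with an adjusted p of 0.157. This adjusted p was 0.0167 to 0.664 over the alternatives and fell under 0.05 without WT PCN 3 and without WT PCN 4. Its interaction was −0.43, with an adjusted p of 0.848 in limma.

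Cdx2, a caudal factor that drives posterior Hox genes in the embryo and intestinal fate in the adult, had a residual SD of 0.88. It gave 13.75, 12.76, 14.29 and 13.42 in WT CONT, 11.77, 14.19, 14.61 and 14.35 in WT PCN, 14.05, 14.47, 14.23, 14.45 and 13.34 in Pxr-/- CONT, and 13.75, 14.26, 12.68 and 14.67 in Pxr-/- PCN. Its 2 lowest arrays, WT PCN 1 and Pxr-/- PCN 3, were those with the highest Hoxd13. Its relative Cdx1 stayed between 15.4 and 15.9. Of 10 neighbouring genes of the clusters that were tested, 0 were called in limma. Evx1, next to Hoxa13, differed by −0.997 (SE 0.43, unadjusted p = 0.0345, adjusted p = 0.647, alternatives 0.455 to 0.999) with PCN in Pxr-/- mice, and Smug1, beside the Hoxc cluster, by −0.15 (SE 0.07, unadjusted p = 0.0452, adjusted p = 0.383, alternatives 0.141 to 1.00) between genotypes, with an interaction of 0.21.

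The genes outside the Hox family whose order over the 15 points was most like that of Hoxb13 were named by the rule of highest rho. Among the first 8 were Cttnbp2, a cortactin-binding protein (rho = 0.98), the kinase Lrrk2 (0.98), Scel, sciellin (0.98), a probe without a gene name (0.97), Npy1r, a receptor of neuropeptide Y (0.97), Clic6, an intracellular chloride channel (0.97) and Gm15401 (0.97), where equal values of rho were taken in alphabetical order. Their signals spanned 1.94 to 5.93 log2 units over the points. These values are the extremes of 24994 genes in the same 15 points and are a description.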

How the data were processed

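The authors hybridized Cy3-labelled colon RNA to single-colour Agilent 60-base arrays and deposited the scanner output of Agilent Feature Extraction 10.10.1.1 (version per the submitters' processing notes), which gives the intensity of each spot and flags for outliers, saturation and spots well above background. The authors also deposited log2 values, filtered and normalized by them with a correction for the wash bath, which served as an alternative. Their CrossNorm step was replaced by quantile normalization.

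Median intensities of 59305 non-control spots without outlier flags were log2-transformed, quantile-normalized over 17 arrays and averaged per probe (56605 probes). Probes well above background on at least 4 arrays entered 1 linear model of the 4 groups and the wash bath (limma 3.58.1 under R 4.3.3, moderated by eBayes, Benjamini-Hochberg over 38703 probes). The fit was tested on simulated data. The number of arrays limits the precision. Correlations used 15 points, Pearson's r and Spearman's rho with 100000 permutations.

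Members and gene lists were chosen with earlier results of these data known. Values in every array were given for the genes of paralogue groups 10 to 13 detected on every array and for the 5 others of largest residual SD. In each comparison, at most 6 Hox genes and at most 3 genes of a list with an unadjusted p under 0.05 were named. Alternatives were the authors' log2 values, the processed signal minus its 75th percentile, normexp with an offset of 50, other filters, slide, bath and replicate terms, array weights, each array left out and the 4 near-identical arrays left out. Hoxb13 as a covariate and the correlations on both sides of 15 were added after the data had been seen. The results of some genes and a probe sequence are not reported here.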

Additional observations from a re-analysis of the deposited data

Results flagged for a closer look

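In groups of 4 to 10 arrays, the distance of the most extreme array to its nearest neighbour was set against the range of the group (Dixon's test at 95%). Over 14 Hox genes in 4 groups, 56 sets of values were examined and 10 stood out. Chance alone flags about 1 in 20 sets of independent values, a rate that is no comparison here, since several of the genes were taken for their large spread and move together across arrays. For 0 of the 14 genes did all PCN arrays move one way in WT and the opposite way in Pxr-/- mice.

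WT PCN 1 stood out for 5 genes. It was high for Hoxd13, at 11.51 against 6.78 to 7.39 in the other WT PCN arrays, and low for Hoxa11, at 9.98 against 11.03 to 11.12, for Hoxb6, at 7.81 against 9.68 to 9.86, for Hoxb7, at 8.05 against 9.90 to 9.99, and for Hoxd4, at 8.74 against 9.10 to 9.14. It is the WT PCN array of wash bath 2. WT CONT 4 was high for Hoxb6, at 9.78 against 7.58 to 7.93, for Hoxb7, at 10.18 against 7.71 to 8.01, and for Hoxd4, at 9.43 against 8.02 to 8.24, and it is the array with the highest mean of pancreatic genes (17.5). Pxr-/- PCN 4 was low for Hoxa13, at 7.83 against 9.48 to 9.72. WT CONT 3 was low for Hoxa3, at 10.68 against 10.90 to 10.92. Hoxb13 of Pxr-/- PCN 4 (7.53) was not among the 10.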

How the results depend on the processing

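The count of Hox genes called was 0 in all comparisons under every alternative, with each array left out, and without the 4 near-identical arrays. The replicate numbers did not pair the arrays (same-numbered arrays of different groups had r of −0.33 to 0.49, median 0.10, against a median of −0.05 for other numbers), and the fit with the replicate number as a block called 0 Hox genes, with 3, 3, 2 and 1 at an unadjusted p under 0.05 for PCN in WT, PCN in Pxr-/-, genotype and interaction. With each array left out, the numbers of Hox genes at an unadjusted p under 0.05 were 0 to 1, 2 to 8, 0 to 2 and 0 to 6.

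The median residual SD of 0.57 was 0.91 with the processed signal minus its 75th percentile, 0.41 with normexp (14 genes, not 18, over the 95th percentile) and 0.47 to 0.59 with each array left out. The number of measures related to Hoxb13, 10 of 31, was 17 with group means taken out, 16 within wash bath 1, 0 among the 8 points above 15, and 10 to 20 with each point left out, the last without Pxr-/- PCN 4. The causes were not tested. Detection on every array was 23 genes, 27 by the flag for a positive and significant signal and 23 over any probe. The named fold changes kept their sign in all 34 alternatives each. Signals near background, as for Hoxb8 on 5 arrays, limit what differences can be seen.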

Other observations

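Genes opposite in order to Hoxb13 over the 15 points were chosen after their values had been seen. The 8 with the lowest rho were Cyp2c66 (−0.97), a cytochrome P450, Taldo1 (−0.97), the transaldolase of the pentose phosphate pathway, Chrnb4 (−0.96), a subunit of nicotinic receptors in ganglia, Sct (−0.96), which codes for the hormone secretin, Ncoa7 (−0.96), Dsg3 (−0.96), a desmosomal cadherin, B4galnt2 (−0.96), a glycosyltransferase of intestinal epithelium, and Samd5 (−0.96). Cyp2c66 ranged from 8.15 to 14.31 and Sct from 11.65 to 15.23 over the points, while Taldo1 stayed between 15.24 and 16.02. These are extremes of 24994 genes and carry no test.

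With the Hoxb13 signal as a covariate in the limma fit, a setting added after the data had been seen, the median residual SD of the other 32 Hox genes was 0.30, against 0.57 for the 33 genes without it, and that of all probes 0.16 against 0.17. The counts of Hox genes called stayed at 0 in all 4 comparisons. At an unadjusted p under 0.05 there was 1 (3.12%, against 5.26% of all probes) for the PCN comparison of WT mice, and there were 9 (28.1%, against 11.7%) for that of Pxr-/- mice, 4 (12.5%, against 13.2%) between genotypes and 4 (12.5%, against 8.35%) in the interaction. Without the covariate there were 0, 4, 1 and 0, against 4.66%, 7.35%, 12.7% and 5.38% of all probes. Over all probes, PCN in Pxr-/- mice had 2 calls without and 0 with the covariate.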
